A study of Homo sapiens with 6 samples.

Results

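Ribosomal proteins that have a second, expressed gene copy were followed in HEK293T cells. HEK293T is an established cell line of human embryonic kidney origin that carries the SV40 large T antigen. The genes were 5 parents (RPL22, RPL26, RPS27, RPL7 and RPL39) and their 5 paralogs (RPL22L1, RPL26L1, RPS27L, RPL7L1 and RPL39L), found by Ensembl identifier as 10 of the 63086 rows of the table, and all 10 passed the filter on low counts. They were chosen by name as pairs, with the lower values of RPL22L1 and RPL26L1 in 100Q already seen, so their differences between the groups are given as a description, and nothing is read from calls of these genes in the fits across all genes. The 100Q group was 3 libraries from queuine-supplemented cells and the 0Q group was 3 libraries from queuine-depleted cells, with medium containing dialyzed serum shared by both groups. The 100Q cells were 0Q cells given queuine for 24 hours, at 100 nM according to the sample characteristics and at 1 µM according to the treatment protocol. The labels call the samples triplicate without saying whether they were separate cultures, so the spread given here is that between libraries and may be technical.

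Queuine is a base made by bacteria. Mammals obtain it from food and gut microbes and build it, as queuosine, into the anticodon of the tRNAs that read histidine, asparagine, aspartate and tyrosine codons. Most mammalian ribosomal proteins come from a single functional gene, and a few have a paralog that can take the same place in the ribosome or has acquired work of its own. RPL22, RPL26, RPL7 and RPL39 belong to the large subunit and RPS27 to the small one. RPL22 and RPL22L1 bind RNA, and in mice loss of Rpl22 raises Rpl22l1. RPL26 sits near the exit of the nascent chain and receives the small modifier UFM1. RPS27 is a zinc finger protein, and RPS27L is known to respond to DNA damage. RPL39 lines the exit tunnel, and RPL39L is best known from the testis. RPL7L1 resembles yeast Rlp7, which works in the assembly of the large subunit rather than in the finished ribosome.

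Libraries held 4023956 to 11398835 estimated counts in 100Q and 7264638 to 8035251 in 0Q. The first principal component of all tested genes (30.9% of the variance) set 100Q replicate 2 apart, which is the shallowest library, and the second (22.7%) set 100Q replicate 1 apart. Results that rest on these libraries are given without them as well. The 5 marker genes chosen for HEK293T were all present, with a summed level of 288 to 309 CPM in 100Q and 312 to 342 CPM in 0Q, where CPM is a gene's count over the TMM-scaled size of its library. Of 5 markers of other cell types, PTPRC, CD3E and MYH7 had 0 counts and ALB had 1. The summed level of these 5 was 28.8 to 31.6 CPM in 100Q and 25.5 to 30.3 CPM in 0Q, and came from the collagen gene COL1A1 apart from the 1 ALB count.

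On hg38 (GENCODE 44) RPL22L1 (ENSG00000163584) lies at chr3:170864875-170870208 on the minus strand and RPL22 (ENSG00000116251) at chr1:6185020-6209389, minus. RPL26L1 (ENSG00000037241) lies at chr5:172958729-172969771, plus, and RPL26 (ENSG00000161970) at chr17:8377516-8383213, minus. RPS27L (ENSG00000185088) lies at chr15:63125872-63158021, minus, and RPS27 (ENSG00000177954) at chr1:153990762-153992155, plus. RPL7L1 (ENSG00000146223) lies at chr6:42879616-42889925, plus, and RPL7 is ENSG00000147604. RPL39L (ENSG00000163923) lies at chr3:187120948-187180908, minus, and RPL39 (ENSG00000198918) at chrX:119786504-119791630, minus. The copies of each pair lie on different chromosomes, and all are multi-exon protein-coding genes.

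The copies differ in how far their sequences have diverged. RPL26L1 and RPL26 encode proteins of 145 residues that differ at 2, although 69 of their 435 coding bases differ (84.1% coding identity). RPL39L and RPL39 differ at 8 of 153 coding bases and at 4 of 51 residues. RPS27L and RPS27 differ at 56 of 252 coding bases and at 3 of 84 residues. RPL22L1 shares 70.3% of aligned residues with RPL22 and RPL7L1 shares 42.2% with RPL7. The coding starts of the pair that is nearly alike in protein and divergent in codons are shown first, bases 1 to 150 from the start codon in GENCODE 44 transcripts, with bases that differ within the pair in capitals.
RPL26L1: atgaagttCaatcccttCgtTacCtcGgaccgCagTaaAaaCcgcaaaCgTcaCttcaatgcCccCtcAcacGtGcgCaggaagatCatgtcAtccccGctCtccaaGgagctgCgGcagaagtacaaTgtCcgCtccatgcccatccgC
RPL26: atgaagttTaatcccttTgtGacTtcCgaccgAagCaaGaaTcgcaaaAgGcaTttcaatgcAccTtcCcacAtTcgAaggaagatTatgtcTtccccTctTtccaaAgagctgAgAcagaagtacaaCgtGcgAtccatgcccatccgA
The full coding sequences of the pair with the closest DNA, bases 1 to 153, follow with the 8 differing bases in capitals.
RPL39L: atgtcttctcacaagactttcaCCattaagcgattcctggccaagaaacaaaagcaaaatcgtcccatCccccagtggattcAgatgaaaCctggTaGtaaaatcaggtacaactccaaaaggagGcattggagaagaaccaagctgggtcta
RPL39: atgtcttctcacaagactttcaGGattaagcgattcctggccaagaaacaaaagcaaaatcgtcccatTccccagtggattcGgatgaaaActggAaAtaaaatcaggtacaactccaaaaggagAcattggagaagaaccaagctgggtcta

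In spite of this likeness, no stretch of 50 bases was shared within a pair except between RPL39L and RPL39, where 2.65% of the stretches of the RPL39L transcript also occur in RPL39. The parents instead share sequence with other annotated genes, many of them named pseudogenes. Stretches of 50 bases found in any other annotated gene made up 68.1% of the RPL26 transcript, 68.0% of RPS27, 58.8% of RPL7, 37.8% of RPL39 and 16.3% of RPL22. Among the paralogs the share was 52.9% for RPL26L1, all of it in the pseudogenes RPL26P29 and RPL26P30, and 20.4%, 3.32%, 2.65% and 0.81% for RPL7L1, RPS27L, RPL39L and RPL22L1. The deposited counts follow this order in part. RPL22L1 and RPS27L had whole counts, within 0.005, in 6 of 6 libraries and RPL39L in 5 of 6. RPL39 had a whole count in 1 library, and RPL26L1, RPL7L1, RPL22, RPL26, RPS27 and RPL7 had fractions in every library. Values of genes with fractions are uncertain where reads were divided, and which genes they were divided with was not tested. RPL26P29 and RPL26P30 held 7 and 10.7 counts in all 6 libraries together.

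The starts of the genes differ as well. Messenger RNAs of ribosomal proteins commonly begin at a C within a run of pyrimidines, the terminal oligopyrimidine start through which mTOR controls their translation. The RefSeq windows below (GRCh38.p14) run from 40 bases before the start site to 10 bases from it onward, and capitals mark the longest run of C or T that reaches within 5 bases of the start. The windows cover chr1:6199586-6199635 (minus strand) for RPL22, chr3:170870186-170870235 (minus) for RPL22L1, chr17:8383184-8383233 (minus) for RPL26 and chr5:172958689-172958738 (plus) for the first of 2 listed starts of RPL26L1.
RPL22L1: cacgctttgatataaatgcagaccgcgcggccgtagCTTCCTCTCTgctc
RPL22: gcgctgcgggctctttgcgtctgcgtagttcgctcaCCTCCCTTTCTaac
RPL26L1: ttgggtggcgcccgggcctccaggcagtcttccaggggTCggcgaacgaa
RPL26: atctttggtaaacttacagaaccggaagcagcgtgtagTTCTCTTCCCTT
RPL22L1 has a run of 10 pyrimidines and RPL22 a run of 11, and both listed starts are a C. Of 35116 promoters in the table, 6.21% have a run of at least 10 and 4.59% a run of at least 11. RPL26, RPS27 and RPL39 have runs of 14, 9 and 22, and that of RPL26 goes on past the end of the printed window. The listed starts of RPL26L1 have runs of 2 and 3, and those of RPS27L and RPL7L1 have runs of 2, where the median over all promoters is 4 bases. RPL7 and RPL39L have no entry. In the 3 pairs with an entry for both genes the paralog's run was 10 against 11 in the parent for RPL22L1, at most 3 against 14 for RPL26L1 and 2 against 9 for RPS27L.

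The coding sequences hold the codons read by the queuosine tRNAs in different amounts. These codons, for histidine, asparagine, aspartate and tyrosine, made up 19.7% of the RPL22L1 coding sequence (24 codons), against 15.6% of RPL22 (20 codons). The share in RPL22L1 is above that of 97.8% of 19061 reference coding sequences, whose median is 13.6%. The other paralogs stand lower, with RPL26L1 above 61.6% of these sequences, RPS27L above 18.6%, and RPL7L1 and RPL39L each above 12.1%. Whether the share of these codons goes with the differences between the groups was not tested. RPL26L1 and RPL26 both have 21 such codons, of which 15 end in C in RPL26L1 and 12 in RPL26. RPS27L and RPS27 both have 9, with 3 ending in C. RPL7L1 has 25, of which 28.0% end in C, against 44.1% of 34 in RPL7, and the median over all coding sequences is 57.4%. RPL39L has 5 and RPL39 has 6, with 3 ending in C in each.

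Parents were more abundant than their paralogs in every pair. Levels between genes were compared as CPM per kb of the reference transcript, averaged over the 6 libraries. RPL39 was highest at 2549 ± 295 CPM per kb (SD, n = 6), followed by RPL26 at 1939 ± 202, RPS27 at 1159 ± 97.5, RPL7 at 987 ± 82.2 and RPL22 at 179 ± 14.9. The paralogs came after them, with RPL26L1 at 91.8 ± 19.7, RPL7L1 at 71.7 ± 7.14, RPL22L1 at 38.4 ± 7.29, RPL39L at 20.9 ± 3.75 and RPS27L at 3.91 ± 0.45 CPM per kb. The ranges over libraries overlapped between RPS27 and RPL7 and between RPL26L1 and RPL7L1, and not between other neighbours in this order. Per-length levels depend on the transcript assumed. The reference transcript of RPS27L is 6110 bases long with 252 coding bases, and that of RPL7L1 is 4499 bases. With the merged length of all exons RPL7 came second after RPL39, and the order of the other genes was kept.

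**Figure D1:**
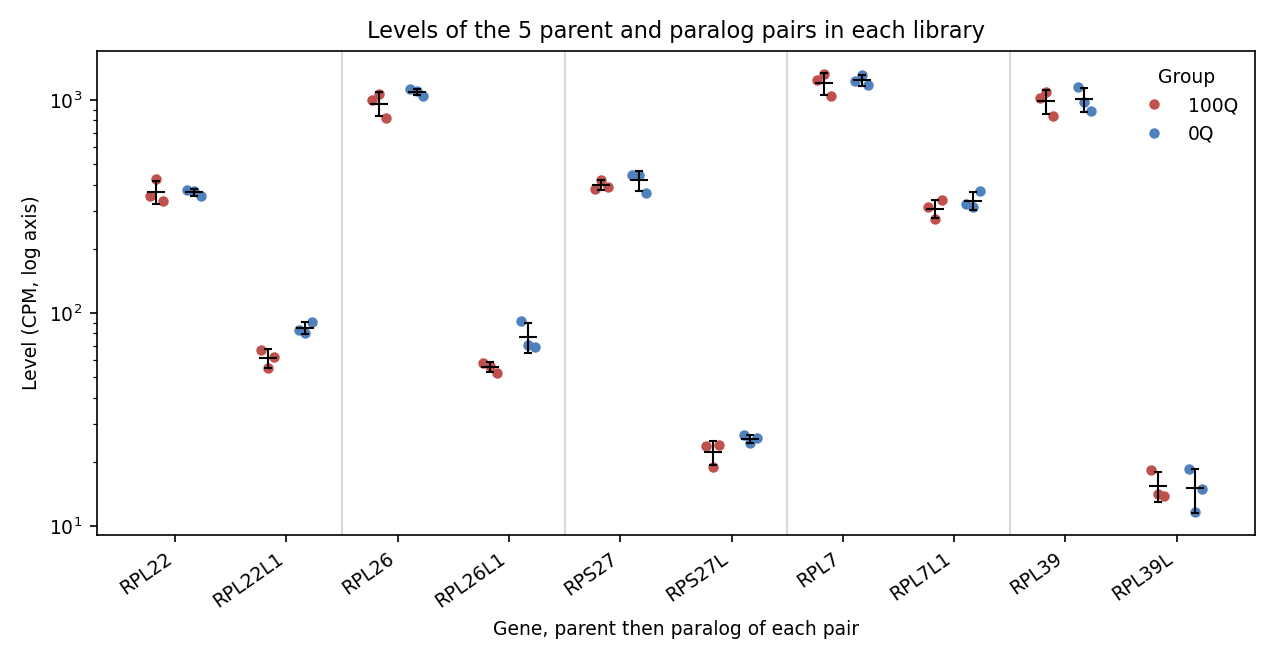
Level of each gene in CPM on a log axis, in 100Q (red) and 0Q (blue) libraries, with the mean and SD of 3 libraries in black; genes stand in pairs, parent then paralog. RPL22L1 and RPL26L1 lie lower in every 100Q library than in every 0Q library, while RPL22 and RPL39 overlap between the groups.

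RPL22L1, the RNA-binding copy of RPL22, was the lower of its pair and had lower values in 100Q. It had 67.0, 55.0 and 61.9 CPM in 100Q replicates 1 to 3, against 83.1, 80.1 and 91.0 CPM in 0Q. All 3 libraries of 100Q lay below all 3 of 0Q, with means of 61.3 ± 6.03 and 84.7 ± 5.63 CPM (SD, n = 3 each) and a log2 fold change, 100Q minus 0Q, of -0.46 ± 0.11 (SE, edgeR). Counts were 348, 219 and 721 in 100Q and 595, 637 and 689 in 0Q, and counting error alone gives a coefficient of variation of 6.76% in the lowest library. In bulk RNA a lower level per cell and fewer cells expressing a gene cannot be told apart. The fold change was -0.40 without 100Q replicate 2 and -0.53 without 100Q replicate 1. RPL22 had 353, 424 and 336 CPM in 100Q, against 378, 372 and 353 CPM in 0Q. Its groups overlapped, 100Q replicate 2 had the highest value and 100Q replicate 3 the lowest, and the log2 fold change was 0.01 ± 0.09, or -0.10 without 100Q replicate 2.

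RPL26L1, which makes a protein almost identical to RPL26, showed lower values of like size. It had 58.3, 56.2 and 52.3 CPM in 100Q, against 91.3, 70.8 and 68.8 CPM in 0Q. The groups did not overlap, and 0Q replicate 1 stood above the other 0Q libraries. The means were 55.6 ± 3.09 in 100Q and 77.0 ± 12.4 in 0Q (CPM, SD, n = 3 each), with a log2 fold change of -0.47 ± 0.12 (SE). Leaving out 0Q replicate 1 gave -0.33. Leaving out 100Q replicate 2 gave -0.48, and leaving out 100Q replicate 1 gave -0.51. RPL26 had 996, 1061 and 825 CPM in 100Q, against 1120, 1096 and 1044 CPM in 0Q. Here 100Q replicate 2 lay inside the range of 0Q, and 100Q replicate 3 was far below the rest. The log2 fold change of -0.18 ± 0.09 was -0.08 without 100Q replicate 3 and -0.26 without 100Q replicate 2.

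RPS27L, the copy known from the DNA damage response, had 23.7, 18.8 and 23.9 CPM in 100Q, against 26.7, 24.5 and 25.8 CPM in 0Q. The groups were apart by less than 1 CPM, and the log2 fold change was -0.20 ± 0.16 (SE), or -0.11 without 100Q replicate 2. RPS27, whose product is part of the small subunit, had 381, 422 and 390 CPM in 100Q, against 445, 445 and 365 CPM in 0Q. Its lowest value was in 0Q replicate 3 and the groups overlapped, with a log2 fold change of -0.07 ± 0.09.

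RPL7L1, the assembly factor relative, was the most abundant paralog by counts. It had 313, 276 and 337 CPM in 100Q, against 323, 313 and 373 CPM in 0Q, with overlapping groups and a log2 fold change of -0.12 ± 0.09 (SE). The fold change was -0.05 without 100Q replicate 2 and -0.04 without 0Q replicate 3, the highest of the 6 libraries. RPL7 had 1233, 1320 and 1044 CPM in 100Q, against 1224, 1309 and 1169 CPM in 0Q, a log2 fold change of -0.04 ± 0.09, and its groups overlapped too.

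RPL39L, the copy of a tunnel protein, was at the low end of the set by CPM. It had 18.3, 14.1 and 13.8 CPM in 100Q, against 18.6, 11.6 and 14.9 CPM in 0Q, and the log2 fold change of 0.03 has a 95% interval of -0.44 to 0.50. Counting error gives a coefficient of variation of 13.4% in its lowest library. A difference of the size seen for RPL22L1 lies within its interval on the higher side and just outside it on the lower. RPL39 had 1017, 1092 and 842 CPM in 100Q, against 1143, 981 and 891 CPM in 0Q, a log2 fold change of -0.03 ± 0.10 (SE) with overlapping groups.

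Of the 10 genes 8 had negative fold changes, where 50.6% of all tested genes did, and their median log2 fold change was -0.10, against -0.0027 for the 14905 genes tested. Groups were apart with 100Q lower for 3 of the 10, RPL22L1, RPL26L1 and RPS27L, where the share over all tested genes was 5.19%. With edgeR's quasi-likelihood test at a Benjamini-Hochberg adjusted p under 0.05, 0 of the 10 were called, where 0.0134% of all tested genes were. DESeq2 called 1 of the 10, RPL22L1, where it called 0.0599% of genes, and limma-voom called 0, where it called 0.00671%. Without a filter on low counts edgeR called RPL22L1 and RPL26L1, where it called 0.245% of genes. Since the same contrast served to choose the genes, nothing is read from these counts. Without 100Q replicate 2 the log2 fold changes of RPS27, RPL7 and RPL39 were each -0.12. The summed level of the 5 paralogs was 481, 420 and 489 CPM in 100Q and 542, 500 and 574 CPM in 0Q. That of the 5 parents was 3979, 4319 and 3438 CPM in 100Q and 4310, 4203 and 3822 CPM in 0Q, with overlapping groups.

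**Figure D2:**
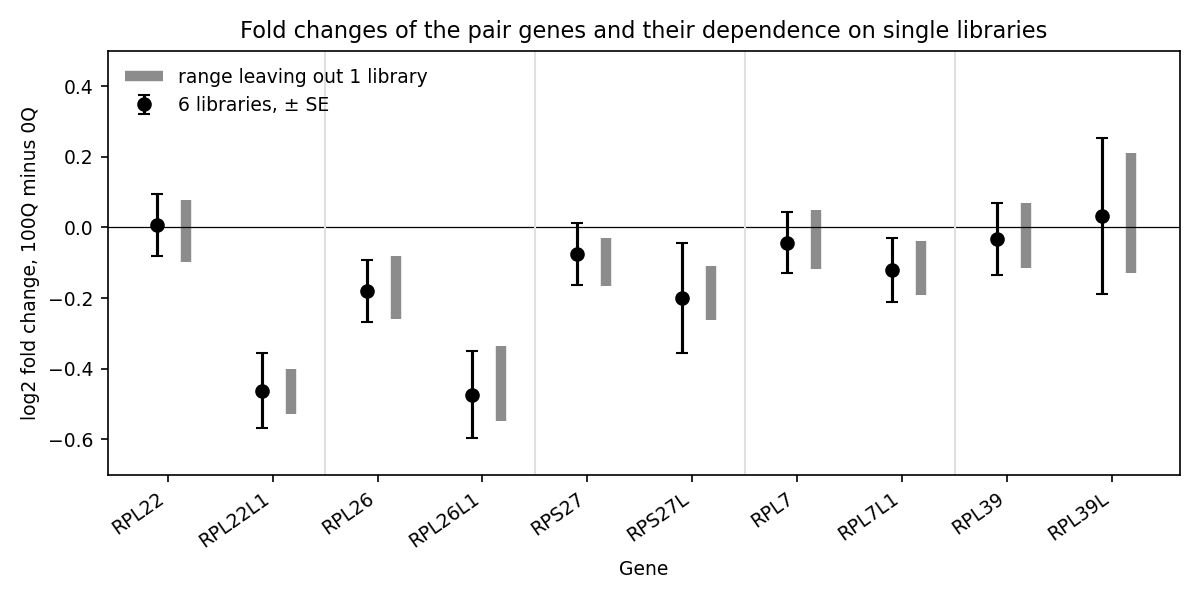
Log2 fold change of each gene, 100Q minus 0Q, with its SE (black), and the range of values when 1 of the 6 libraries was left out (grey bar). RPL22L1 runs from -0.53 to -0.40 and RPL26L1 from -0.55 to -0.33, and the bars of RPL22, RPL7, RPL39 and RPL39L reach both signs. RPL22L1 and RPL26L1 were chosen as lower in 100Q and their groups are apart. Their sign was therefore not free to turn when 1 library was left out, and nothing is read from it.

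**Figure D3:**
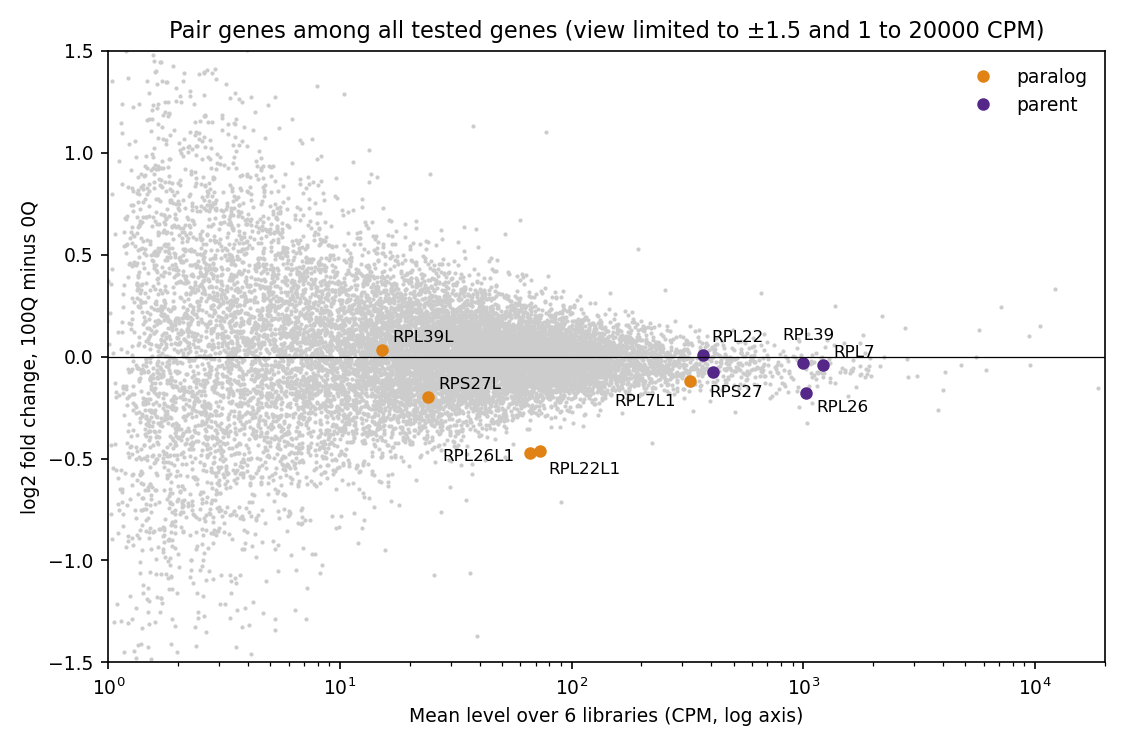
Log2 fold change, 100Q minus 0Q, against mean level over 6 libraries for all 14905 tested genes (grey; the view is limited as its title says), with paralogs in orange and parents in purple. RPL22L1 and RPL26L1 lie at -0.46 and -0.47 among genes of similar level, and the parents lie at higher levels, RPL26 at -0.18 and the other 4 between -0.07 and 0.01.

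The share of a pair held by the paralog compares copies within a library, so scaling between libraries does not enter it. Per kb of transcript, RPL22L1 made up 17.1%, 12.3% and 16.6% of its pair in 100Q replicates 1 to 3, against 19.2%, 18.9% and 21.8% in 0Q. Every 100Q library was below every 0Q library. In shares of counts the exact binomial 95% intervals of 100Q replicates 1 (14.5% to 17.6%) and 3 (14.5% to 16.6%) reached those of 0Q. Both overlapped 0Q replicate 2 (16.5% to 19.0%), and 100Q replicate 1 also overlapped 0Q replicate 1 (16.7% to 19.4%). The means per kb were 15.3% ± 2.62 in 100Q and 19.99% ± 1.59 in 0Q (SD, n = 3 each). RPL26L1 made up 4.11%, 3.73% and 4.43% of its pair in 100Q, against 5.62%, 4.51% and 4.597% in 0Q. These groups were apart as well. In shares of counts the intervals were 4.94% to 6.17%, 4.41% to 5.72% and 5.51% to 6.43% in 100Q replicates 1 to 3. All of them overlapped those of 0Q replicate 2 (5.59% to 6.57%) and 0Q replicate 3 (5.68% to 6.72%). These intervals cover counting error only. The difference of the log2 ratio of paralog to parent, 100Q minus 0Q, was -0.48 ± 0.19 (SE) for RPL22L1 and -0.27 ± 0.13 for RPL26L1. The 95% intervals from the 6 library values were -1.01 to 0.064 for RPL22L1 and -0.64 to 0.090 for RPL26L1, and both include 0.

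Both ratios leaned on single libraries. The difference for RPL22L1 was -0.30 without 100Q replicate 2, which had the lowest share of the 6 libraries, and -0.57 without 100Q replicate 1. That for RPL26L1 was -0.17 without 0Q replicate 1, the library with its highest share, and -0.21 without 100Q replicate 2. In the other pairs the shares overlapped between the groups. RPS27L made up 0.357%, 0.257% and 0.351% of its pair per kb in 100Q, against 0.344%, 0.316% and 0.405% in 0Q. RPL7L1 made up 6.51%, 5.41% and 8.13% in 100Q, against 6.73%, 6.16% and 8.05% in 0Q. RPL39L made up 0.953%, 0.684% and 0.870% in 100Q, against 0.862%, 0.627% and 0.888% in 0Q. Differences of the log2 ratio were -0.15 ± 0.19, -0.08 ± 0.22 and 0.08 ± 0.22 (SE) for these pairs.

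Variation that the groups do not explain ran across the pairs. 100Q replicate 2 had the lowest paralog share of the 6 libraries in 4 of 5 pairs, all but RPL39L. Within each group, replicate 2 had the lowest paralog share in every pair, so the pattern was not limited to 100Q. The other 74 core ribosomal protein genes summed to 75852, 82942 and 70249 CPM in 100Q replicates 1 to 3 and to 83625, 81395 and 75301 CPM in 0Q, so that within each group replicate 3 was the lowest library. The part of these library differences in the paralog shares was not tested.

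**Figure D4:**
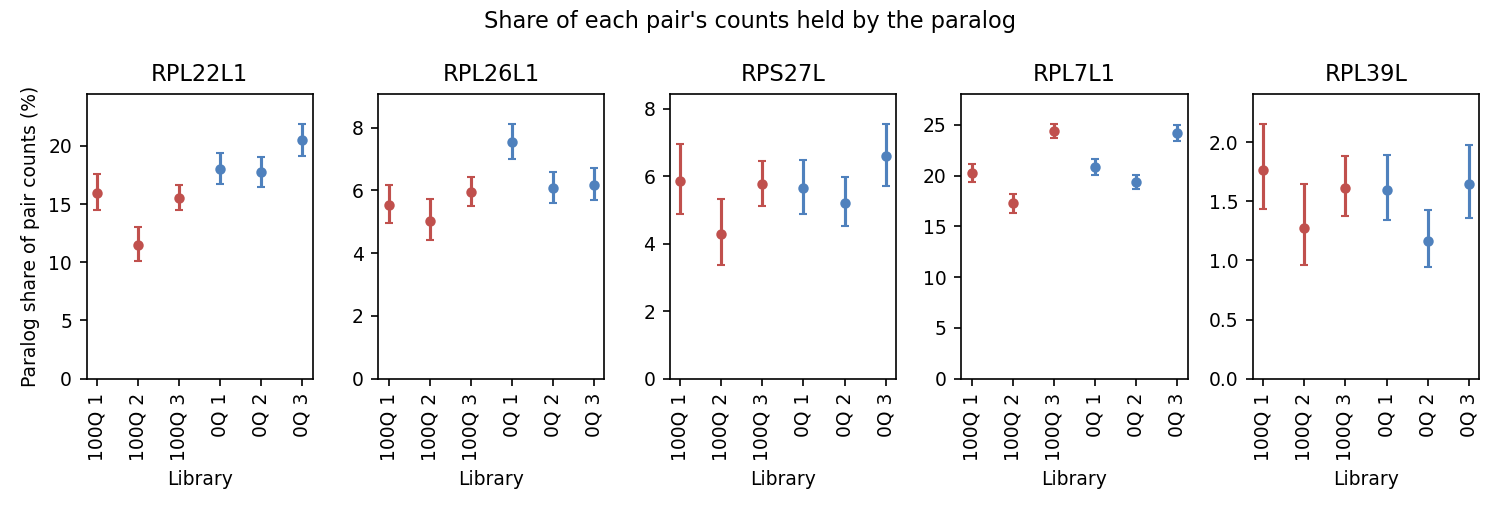
Share of the pair's counts, with no length scaling, held by each paralog in the 3 libraries of 100Q (red) and of 0Q (blue); bars are exact binomial 95% intervals for counting error. RPL22L1 runs from 11.5% to 16.0% in 100Q and from 17.7% to 20.5% in 0Q, and the RPL39L panel overlaps between the groups.

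Pseudogenes named after a gene and with at least 5% of its counts were RPL22P1 (6.37% of RPL22) and RPL7P9 (6.51% of RPL7). RPL22P1 had 29.0, 18.75 and 15.0 CPM in 100Q, against 25.04, 34.4 and 20.1 CPM in 0Q, and RPL7P9 had 81.3, 83.6 and 63.3 CPM in 100Q, against 89.0, 89.4 and 70.3 CPM in 0Q. Both overlapped between the groups. With the counts of pseudogenes added to the gene they are named after, the difference of the log2 ratio was -0.45 for RPL22L1 and -0.28 for RPL26L1. By name RPL26P29 and RPL26P30 went to RPL26, and RPL22P13 to RPL22, although they share stretches with RPL26L1 and RPL22L1. Unnamed genes that share sequence with RPL26 were not added. Exons of RPL22L1, RPS27, RPS27L, RPL7, RPL7L1 and RPL39L share no base with an exon of another annotated gene, although the RPS27L locus overlaps LACTB and the RPL7 locus overlaps RDH10, both on the opposite strand. RPL22 shares 243 exon bases with RNF207 on the opposite strand and 231 with ENSG00000285629, which held 0 counts, and RPL39 shares 104 with SNORA69, also at 0 counts. RPL26 shares 360 with the unnamed coding gene ENSG00000263809, which held 162 counts in all, and RPL26L1 shares 50 with its antisense gene, which held 30. The strand setting of the counting is not given in the sources used here, so reads in these stretches cannot be told apart.

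Of the other 74 core ribosomal protein genes, 0 were called in either direction by edgeR, DESeq2 or limma-voom, where edgeR called 0.0134% of all tested genes. By edgeR 6 had an unadjusted p under 0.05, all lower in 100Q, where 2.23% of all tested genes were lower and 2.49% higher at that p. Negative fold changes were found for 64 of the 74, where the share over all tested genes was 50.6%, and the median log2 fold change was -0.07, against -0.0027 over all tested genes. Their fold changes ran from -0.27 for RPL21 to 0.09 for RPLP2. Groups were apart with 100Q lower for 6 of them, where the share over all tested genes was 5.19%. The summed level of the 74 overlapped between the groups, at 70249 to 82942 CPM in 100Q and 75301 to 83625 CPM in 0Q. Genes that shift together from library to library are not separate observations, and how far these 74 did so was not tested. The most abundant were RPS2 at -0.04 ± 0.08 (SE), RPL4 at -0.10 ± 0.07 and RPL3 at -0.0043 ± 0.10. Of 3 further paralogs, RPL36AL, a copy of RPL36A, had 83.2, 74.3 and 65.0 CPM in 100Q, against 81.9, 82.1 and 81.9 CPM in 0Q, a log2 fold change of -0.15 ± 0.11 with overlapping groups. RPL3L, the muscle copy of RPL3, had 11, 5 and 12 counts in 100Q, against 7, 4 and 4 in 0Q, and RPL10L, a testis copy of RPL10, had 1 count in all, too few to test.

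Genes that work with these proteins were examined in 4 lists, chosen with earlier results of these data known, and 0 of their tested genes were called by edgeR, DESeq2 or limma-voom. Beside the counts that follow, 50.6% of all tested genes had negative fold changes, and 2.23% were lower and 2.49% higher at an unadjusted p under 0.05. UFMylation genes, whose products act in the attachment, processing or removal of UFM1, had a median log2 fold change of -0.07 over 9 genes. Of these, 7 were negative, and 0 had an unadjusted p under 0.05. CDK5RAP3, a part of the ligase complex, averaged 119 ± 12.8 CPM in 100Q, against 100.2 ± 14.7 in 0Q (SD, n = 3 each). The conjugating enzyme UFC1 averaged 60.7 ± 12.5 CPM in 100Q, against 60.5 ± 6.18 in 0Q. Both overlapped between the groups. Assembly factors next to Rlp7 in yeast had a median log2 fold change of -0.08 over 6 genes, 5 of them negative, and 1 was lower at an unadjusted p under 0.05. RSL1D1 had 203, 171 and 181 CPM in 100Q, against 209, 209.9 and 212 in 0Q, and its groups were apart. PES1 (123 ± 9.96 CPM in 100Q, against 134 ± 9.49 in 0Q) and BOP1 (122 ± 5.04 in 100Q, against 128 ± 12.2 in 0Q) overlapped.

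The list of genes that link free ribosomal proteins to MDM2 and the stress response it controls had a median log2 fold change of -0.02 over 8 genes, 4 of them negative, and 1 was higher at an unadjusted p under 0.05, where the share over all tested genes was 2.49%. RPL5 and RPL11, which bind the ubiquitin ligase MDM2, had log2 fold changes of -0.08 ± 0.08 and -0.05 ± 0.09 (SE). MDM4, a partner of MDM2, and CDKN1A, an inhibitor of the cell cycle, were named after their values were seen, because their groups were apart. The share of all tested genes apart with 100Q higher was not computed, so nothing is read from this. MDM4 had 134.01, 133.59 and 144 CPM in 100Q, against 107, 113 and 123 in 0Q (log2 fold change 0.27 ± 0.09, SE). CDKN1A had 53.5, 67.3 and 59.6 CPM in 100Q, against 52.6, 51.7 and 47.2 in 0Q (0.25 ± 0.12). Neither passed the test (edgeR quasi-likelihood, Benjamini-Hochberg adjusted p = 0.987 for both). ZMAT3 and SESN1, of the same list, went the other way, with log2 fold changes of -0.05 ± 0.22 and -0.13 ± 0.18 (SE) and overlapping groups. Nascent chain factors at the exit had a median of -0.06 over 11 genes, 8 of them negative, and 1 was lower at an unadjusted p under 0.05, where the shares over all tested genes were 50.6% and 2.23%. The most abundant were NACA at -0.04 ± 0.08, BTF3 at -0.06 ± 0.08 and SRP9 at -0.15 ± 0.07 (log2 fold change, SE).

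Likeness of profile was measured over the 6 libraries as the Euclidean distance of log2 CPM values centred and divided by their SD, among 10583 genes with at least 10 CPM, a description with no test. Nearest to RPL22L1 were STYXL1 (distance 0.26), CRNKL1 (0.32) and CCT4 (0.37), where the median gene was at 3.09. Division by the SD removes the size of a difference, and the log2 fold changes of these genes were -0.45, -0.18 and -0.14. Among the nearest to RPL26L1 were the pseudogene VDAC2P5 (0.29) and SHC1 (0.35), with log2 fold changes of -0.14 and -0.26. RPL22L1 and RPL26L1 were at a distance of 1.53 from each other. RPL22L1 was nearer to RPS27L (1.21) than to its own parent RPL22 (3.65), and RPL26L1 was at 1.64 from RPL26.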

How the data were processed

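RNA of 6 HEK293T samples was extracted with TRIzol and made into libraries by MSR-seq, per the labels' protocols. The authors deposited 1 table of estimated counts per Ensembl gene, with no scaling between libraries. The submitters' processing notes list FastQC, STAR and RSEM without versions, and hg38 beside mouse builds; the series design names hg38. The sources used here do not give annotation, strand setting or molecular identifiers. Names, lengths and coding sequences came from GENCODE 44 (62541 of 63086 identifiers matched; the others held 0.129% of counts), with the MANE Select transcript as reference, and start sites from RefSeq. Counts were rounded and fitted with edgeR 4.0.16 in R 4.3.3 (quasi-likelihood test, TMM, minimum count 10, Benjamini-Hochberg adjusted p under 0.05). SEs of edgeR fold changes were derived from that test, as the absolute log2 fold change over the square root of its F statistic. Shares of a pair used counts per kb within a library. Counts per library range from 4023956 to 11398835, and binomial intervals cover counting error only, whereas intervals of fold changes come from the edgeR fit and include the spread between libraries. The test was checked on simulated data for 100Q against 0Q over 14905 genes: it recovered 50% of genes changed 1.5-fold and 88% changed 2-fold, with 9 wrong among 174 calls. The simulated counts had a spread set by level alone, no library standing apart, and many changed genes. Recovery in the real libraries may be lower. Counts of libraries of 1 group differed beyond counting error (chi-square over its degrees of freedom from 5.36 to 14.2), so all 6 were kept as samples.

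The members and lists were chosen with earlier results of these data known. Genes named are the 10 members, and called genes and the 3 most abundant genes of each list. Pseudogenes with at least 5% of a member's counts and the 3 nearest profiles to RPL22L1 and RPL26L1 are named too. Extremes of a list, MDM4, CDKN1A, ZMAT3 and SESN1 were named after their values were seen. Some genes that this rule names are not reported here. Alternatives were RLE factors, library size only, no filter, a mean count of at least 50, the replicate number as a block, DESeq2 1.42.0, limma-voom (limma 3.58.1), pseudogene counts added, other lengths, and leaving out each library.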

Additional observations from a re-analysis of the deposited data

How the results depend on the processing

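The number of genes called over all genes was 2 with edgeR, RLE factors or library size only. It was 71 with no filter on low counts (36 higher, 35 lower), 1 with a mean count of at least 50, 14 with DESeq2 (10 higher, 4 lower), 1 with limma-voom, and 0 to 6 when 1 library was left out (6 without 100Q replicate 3, and 0 without 100Q replicate 1 or without either of the first 2 libraries of 0Q). The cause was not tested; 0 of the listed genes outside the pairs were called in any of these fits. Log2 fold changes of RPL22L1 ran from -0.53 to -0.40 and those of RPL26L1 from -0.55 to -0.33 over 13 alternatives. The differences of the log2 ratio when 1 library was left out ran from -0.57 to -0.30 for RPL22L1, -0.34 to -0.17 for RPL26L1, -0.24 to 0.0036 for RPS27L, -0.24 to 0.075 for RPL7L1 and -0.080 to 0.22 for RPL39L. Shares of the pair, as means of 6 libraries, were set by the length assumed. They were 17.7%, 4.50%, 0.338%, 6.83% and 0.814% per kb of reference transcript for RPL22L1, RPL26L1, RPS27L, RPL7L1 and RPL39L. With no length scaling those of RPL26L1, RPS27L, RPL7L1 and RPL39L were 6.05%, 5.56%, 21.1% and 1.51%. With merged exon length, chosen after seeing the data, the 5 shares were 30.9%, 12.0%, 0.682%, 8.46% and 3.06%. Over all tested genes same-numbered libraries did not deviate together (Pearson r 0.0014, -0.020 and 0.081), so the numbers were not taken as pairs. In the paralog shares, however, replicate 2 was the lowest library of its group in every pair, in 100Q and in 0Q. Whether same-numbered libraries belong together was not tested, and the SEs of the log2 ratio differences depend on it. With the replicate number as a block edgeR called 3 genes, none of them a member, the log2 fold changes were -0.47 for RPL22L1 and -0.46 for RPL26L1, and the log2 ratio differences (-0.48, -0.27, -0.15, -0.08 and 0.08) are the same by arithmetic, with SEs of 0.15, 0.12, 0.11, 0.063 and 0.056. Depth limits RPL39L and RPS27L most, with 56 to 161 and 75 to 278 counts per library.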

Other observations

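A pair of RPL39 pseudogenes had most of their counts in 1 library. RPL39P15 had 5.16, 0 and 1.80 estimated counts in 100Q replicates 1 to 3, against 70.3, 6.01 and 7.01 in 0Q, and RPL39P3 had 1.20, 2.01 and 7.21 in 100Q, against 41.6, 3.02 and 4.42 in 0Q. RPL39 itself had 8185 counts in 0Q replicate 1, so these rows hold little beside it. They were singled out after their values were seen, and no test was run on them.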
